A study of Mus musculus with 22 samples.

Results

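The arrays described here are the 5 with the highest and the 5 with the lowest Gpc3 signal among 16 liver arrays of the regimens used to raise tumours, out of 22 arrays in all. They were chosen by a measured value: in the authors' normalized table on the log2 scale, the Gpc3 probe with the highest mean over the 16 arrays ordered them, and the remaining 6 arrays were kept as a middle class. Every sample was microdissected liver of a female C3H mouse, 1 bead array per sample, and the age of the animals was not given in the sources used here. Of the 16 arrays, 7 came from mice given TCPOBOP at 3 mg/kg by gavage once a week for 42 weeks and 9 from mice given a single intraperitoneal injection of DENA (90 mg/kg), then, after a week of recovery, TCPOBOP at the same weekly dose for 28 weeks. The other 6 arrays were 3 of TCPOBOP alone for 28 weeks and 3 controls, read as age-matched mice given DMSO in corn oil. TCPOBOP activates the constitutive androstane receptor (CAR, gene Nr1i3) of the mouse and is a liver tumour promoter that does not damage DNA, and DENA (diethylnitrosamine) is a DNA-alkylating carcinogen. The labels mark the samples as biological replicates but do not say which was cut from a tumour, or whether samples shared an animal, so p-values measure the spread between these samples.

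Glypican 3, encoded by Gpc3, is a heparan sulfate proteoglycan tethered to the cell surface by a lipid anchor. It is made in fetal liver, falls silent after birth and returns in many hepatocellular carcinomas, and for this it is called an oncofetal protein, as is alpha-fetoprotein (Afp). Its heparan sulfate chains and core protein bind growth factors and Wnt proteins, and the signal of canonical Wnt proteins runs through beta-catenin (Ctnnb1), which joins TCF/LEF factors on DNA to switch on target genes. In the adult liver that pathway is active in the hepatocytes around the central vein (pericentral), whereas hepatocytes near the portal vein (periportal) run the urea cycle.

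Among the genes that differed most between the classes by unadjusted p, several were beta-catenin targets, so the promoters of list members that carry a TCF/LEF motif are shown with that of Gpc3, from RefSeq on GRCm38.p6, each of 300 bases around the gene's start. Capitals mark the motif CTTTGAT or its reverse complement, searched on both strands.
Sp5, chr2:70474673-70474972, plus strand: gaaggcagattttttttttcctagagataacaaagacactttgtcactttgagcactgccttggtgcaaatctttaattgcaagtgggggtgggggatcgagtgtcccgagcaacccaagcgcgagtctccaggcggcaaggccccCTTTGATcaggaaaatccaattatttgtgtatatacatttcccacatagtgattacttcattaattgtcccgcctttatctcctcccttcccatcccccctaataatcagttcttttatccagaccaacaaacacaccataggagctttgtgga
Tnfrsf19, chr14:61037938-61038237, minus strand: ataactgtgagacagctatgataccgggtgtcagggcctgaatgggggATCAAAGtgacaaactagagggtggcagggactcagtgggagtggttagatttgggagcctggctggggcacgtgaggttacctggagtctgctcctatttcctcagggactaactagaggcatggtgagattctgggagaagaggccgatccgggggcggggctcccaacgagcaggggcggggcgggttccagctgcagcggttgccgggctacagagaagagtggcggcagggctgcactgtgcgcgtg
Lect2, chr13:56548489-56548788, minus strand: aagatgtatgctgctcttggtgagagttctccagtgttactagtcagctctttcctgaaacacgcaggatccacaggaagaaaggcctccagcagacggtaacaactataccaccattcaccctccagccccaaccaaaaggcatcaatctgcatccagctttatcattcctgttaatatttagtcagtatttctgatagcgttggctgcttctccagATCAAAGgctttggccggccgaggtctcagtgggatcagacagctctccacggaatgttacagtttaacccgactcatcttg
Gpc3, chrX:52613925-52614224, minus strand: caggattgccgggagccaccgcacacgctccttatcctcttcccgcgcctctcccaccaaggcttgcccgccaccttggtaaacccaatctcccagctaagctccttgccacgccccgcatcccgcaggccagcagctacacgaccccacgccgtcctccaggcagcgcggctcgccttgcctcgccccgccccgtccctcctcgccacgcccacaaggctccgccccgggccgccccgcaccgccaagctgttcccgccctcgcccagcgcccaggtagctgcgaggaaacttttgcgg
The motif was found in the promoters of 3 of the 9 beta-catenin target genes that had a promoter sequence, and in 305 of 9672 promoters of all genes tested (3.15%). It was found in 2 of the 10 promoters given for the 12 genes with the smallest p that read higher, 0 of 8 for the 12 that read lower, 0 of 7 for the 8 genes with the highest r to Gpc3 and 0 of 7 for the 8 with the lowest. Those 2 were Sp5 and Tnfrsf19, already counted among the 3 beta-catenin target genes, so they are no separate observation. The Gpc3 window held none of these letters. The other motifs searched in the same windows were TGANTCA, the AP-1 site, and CAAAGTCCA, an HNF4 site. They were in 6.79% and 0.631% of all promoters, and neither was in any of the 9 beta-catenin target promoters. In the other sets, in the order above, the AP-1 site was in 1 of 10, 2 of 8, 1 of 7 and 0 of 7. The HNF4 site was in 0 of 10, 0 of 8, 1 of 7 and 0 of 7.

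Gpc3 itself (chromosome X, 52272426 to 52613974, minus strand on GRCm38.p6) ranged over the 16 arrays from 6.96 to 12.78 on the authors' log2 scale. The 5 Gpc3-high arrays were DENA plus TCPOBOP 2 at 12.78, DENA plus TCPOBOP 9 at 12.76, TCPOBOP 42 weeks 4 at 12.46, DENA plus TCPOBOP 4 at 12.35 and DENA plus TCPOBOP 5 at 12.26. The 5 Gpc3-low arrays were TCPOBOP 42 weeks 2 at 9.61, TCPOBOP 42 weeks 1 at 9.33, TCPOBOP 42 weeks 7 at 9.01, DENA plus TCPOBOP 6 at 8.42 and DENA plus TCPOBOP 1 at 6.96. The high class thus held 4 arrays of DENA plus TCPOBOP and 1 of TCPOBOP 42 weeks, and the low class 2 and 3. The middle class read 11.98, 11.51 and 10.56 on DENA plus TCPOBOP 8, 3 and 7 and 10.69, 10.16 and 10.09 on TCPOBOP 42 weeks 5, 3 and 6, so the nearest arrays outside the classes lay at 11.98 below the 12.26 of the high class and at 10.09 above the 9.61 of the low class. The level therefore ran on without a gap at either edge. Controls read 7.09 to 7.24 and TCPOBOP for 28 weeks 6.91 to 6.99, so 15 of the 16 arrays lay above every control, and DENA plus TCPOBOP 1, whose probe was not detected (detection p 0.0759), lay below them. A further Gpc3 probe followed it over the 16 arrays (Pearson r 0.99), and the third was detected on none. These values chose the classes and carry no test. In what follows each gene's values on the Gpc3-high and Gpc3-low arrays are given in the order of falling Gpc3 just used, and are log2 intensities after normexp background correction and quantile normalization.

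**Figure D1:**
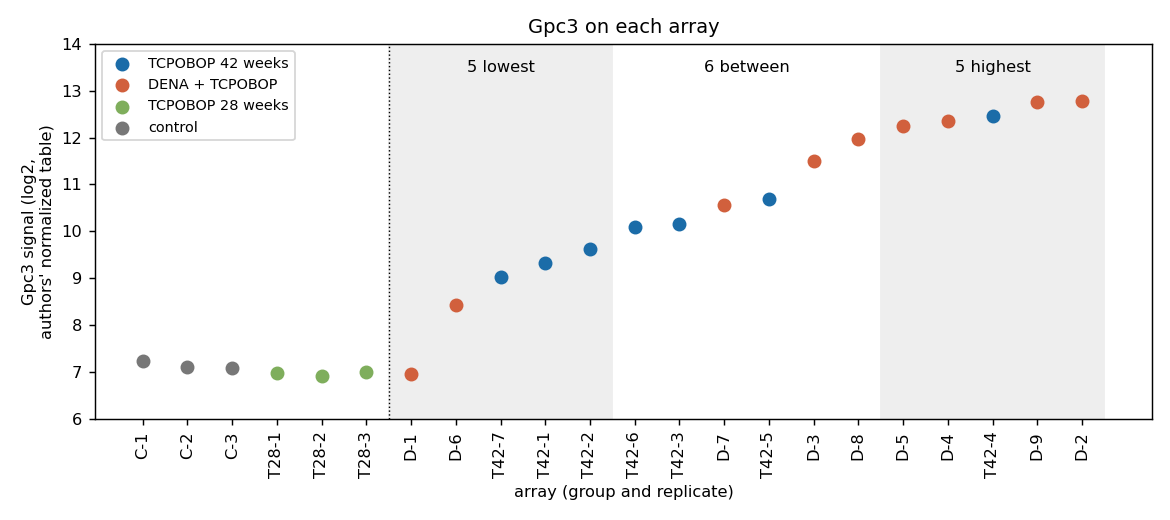
Gpc3 signal (log2, authors' normalized table) on each of the 22 arrays, coloured by group; the 16 arrays of the tumour regimens are ordered by Gpc3 and the shaded bands mark the 5 lowest and 5 highest. The 16 values run from 6.96 to 12.78, with the array at 6.96 apart from the next at 8.42, and the controls lie between 7.09 and 7.24.

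The share of probes detected per array spanned 34.8% to 42.6% over the series, 34.8% to 41.4% on Gpc3-high and 37.8% to 40.6% on Gpc3-low arrays. The 5 hepatocyte markers checked (Alb, Apoa1, Ttr, Serpina1a and Hnf4a) were detected on all 10 arrays. The arrays lay on 4 slides, and the classes were uneven over them: slides 1, 2, 3 and 4 held 1, 1, 2 and 1 Gpc3-high and 3, 1, 1 and 0 Gpc3-low arrays. For the beta-catenin, pericentral, periportal and oncofetal lists, medians within slides and within regimens are given beside the result for this reason.

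No gene passed the test between the classes. With the 16 arrays fitted in 3 classes by limma, 0 of 11974 genes had an adjusted p under 0.05 between Gpc3-high and Gpc3-low arrays (smallest adjusted p 0.804), and 458 had an unadjusted p under 0.05 (3.82%), 235 of them higher (1.96%) and 223 lower (1.86%) on Gpc3-high arrays. The values of all 5 high arrays lay above all 5 low arrays for 36 genes (0.301%) and below them for 46 (0.384%). With the Gpc3 level as a number and regimen as a second term, over the same 16 arrays, 0 genes were called (smallest adjusted p 0.372, 476 genes at an unadjusted p under 0.05, 3.98%), and for 0 genes did that slope differ between the regimens (smallest adjusted p 0.13, with 4.12% of genes at an unadjusted p under 0.05). Every gene named below for this comparison is therefore given as not called. The 95% interval of a difference reached 0.50 log2 to either side for the median gene, and the median size of a difference was 0.158. In these bulk samples fewer cells of a type and less RNA per cell cannot be told apart.

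The smallest p among genes that read higher on Gpc3-high arrays was that of Sp5, a zinc-finger transcription factor induced by Wnt signalling. It read 10.14, 9.64, 8.58, 9.00 and 9.06 on Gpc3-high arrays and 5.89, 6.84, 7.10, 5.34 and 8.18 on Gpc3-low arrays. All 5 high arrays lay above all 5 low arrays, and the lowest value of all was on DENA plus TCPOBOP 6. The difference was 2.61 ± 0.58 (SE, 95% interval 1.39 to 3.83, limma adjusted p = 0.804). The middle arrays ranged from 7.36 over a median of 8.02 to 10.55, and the highest of them, DENA plus TCPOBOP 7, exceeded every Gpc3-high array. Controls read 6.78 to 7.95, so the low class straddled the controls, and TCPOBOP for 28 weeks read 5.11 to 5.47. Over the 16 arrays Sp5 and Gpc3 had Pearson r 0.62 and Spearman rho 0.73 (permutation, adjusted p = 1 for Pearson's r), and r was 0.68 without the 2 arrays farthest from the median of Gpc3.

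Sstr2, a somatostatin receptor, read 9.31, 8.90, 8.78, 8.80 and 9.58 on Gpc3-high and 8.74, 7.45, 6.21, 7.03 and 6.36 on Gpc3-low arrays. The classes did not overlap but nearly met, at 8.78 on TCPOBOP 42 weeks 4 and 8.74 on TCPOBOP 42 weeks 2. Its difference was 1.92 ± 0.43 (SE, limma adjusted p = 0.804). Sstr2 also stood apart from the controls, in which its probe was not detected on any array: it was at least 4.20-fold higher on Gpc3-low arrays (adjusted p = 0.000267) and at least 15.9-fold higher on Gpc3-high arrays (adjusted p = 1.77e-07), against the lowest detected signal of each control array. Those are 2 comparisons that share the 3 controls.

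Avpr1a, the vasopressin receptor of hepatocytes, had the highest difference among the 12 genes with the smallest p that were higher, at 2.84 ± 0.81 (SE, limma adjusted p = 1). It read 9.61, 9.05, 6.99, 7.51 and 9.85 on Gpc3-high and 6.65, 6.44, 5.25, 4.75 and 5.74 on Gpc3-low arrays, so the classes did not overlap, but controls lay above both at 11.12 to 11.81. Against controls its difference was -5.64 on Gpc3-low (adjusted p = 4.03e-05) and -2.80 on Gpc3-high arrays (adjusted p = 0.0196). The rest of those 12 genes were Axin2, Rhbg, Tnfrsf19, Nxpe2 (2.14), Pabpc2 (1.46), Mab21l4 (1.21), Rasgrp3 (1.08), Zfhx3 (0.78) and Sap30 (0.64), all in log2 units of Gpc3-high minus Gpc3-low. Pabpc2 read 4.43 to 4.66 on Gpc3-low arrays, at the limit of detection.

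Of the 12 genes with the smallest p that were lower, Pdcl3, which encodes a phosducin-like protein that works with a chaperonin, read 5.30, 5.03, 4.70, 4.90 and 5.21 on Gpc3-high and 6.03, 6.08, 6.01, 5.59 and 6.21 on Gpc3-low arrays. It was detected on 3 of the 5 high arrays, near the limit of detection, and differed by -0.96 ± 0.21 (SE, limma adjusted p = 0.804). Dmtn, an actin-bundling protein of the red cell skeleton, was not detected on any Gpc3-high array and detected on all 5 Gpc3-low arrays (5.51, 6.68, 7.50, 5.15 and 5.20), where it was at least 1.83-fold higher. Ctnnbip1 encodes a protein that blocks the binding of beta-catenin to TCF factors. It read 7.09, 8.35, 8.39, 8.52 and 7.85 on Gpc3-high and 8.72, 9.00, 9.05, 9.75 and 8.67 on Gpc3-low arrays, a difference of -0.99 (adjusted p = 1), with controls at 9.41 to 9.63. The others were Cyp2d26 (-1.47), a cytochrome P450, Kbtbd13 (-1.43), Chaf1b (-1.05), a subunit of the complex that loads histones on new DNA, Actn3 (-0.80), Micu2 (-0.63), Toporsl (-0.58), Nkain4 (-0.56), Fry (-0.55) and Asb1 (-0.40). Of these, Actn3, Toporsl, Nkain4 and Fry read near the lowest detected signal, which was 4.98 to 5.41 depending on the array.

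The middle arrays, which took no part in the contrast, gave a further look. Within these 6 arrays the slope on Gpc3 had the sign of the difference for 13 of the 24 genes just listed (54.2%), for 275 of the 458 genes with an unadjusted p under 0.05 (60.0%) and for 49 of the 82 genes whose classes did not overlap (59.8%), against 6546 of all 11974 genes (54.7%).

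Most beta-catenin target genes read higher on Gpc3-high arrays. Of 19 listed genes 15 were measured, 13 of these read higher, 9 with an unadjusted p under 0.05 (background 1.96%), 0 were lower at that level and 0 had an adjusted p under 0.05. Their median difference was 0.82 log2, against -0.005 over all genes tested. Over all genes tested 5884 read higher and 6090 lower. The list was chosen with earlier results of these data known. The 4 members whose classes did not overlap were Sp5, Axin2, Rhbg and Tnfrsf19 (background 0.301% of all genes, higher without overlap). All 4 were already named above among the higher genes with the smallest p, so they are no separate observation. Axin2, which helps to mark beta-catenin for destruction and is itself induced by it, read 10.07, 8.56, 7.97, 8.64 and 7.97 on Gpc3-high and 7.30, 7.24, 7.12, 5.58 and 7.83 on Gpc3-low arrays, a difference of 1.63 ± 0.50 (SE). DENA plus TCPOBOP 6 lay far below the rest. Tbx3, a transcription factor of pericentral hepatocytes, read 10.47, 9.95, 8.39, 10.01 and 10.27 against 8.89, 7.98, 7.46, 8.83 and 8.74, overlapping only through TCPOBOP 42 weeks 4, and differed by 1.44 ± 0.43 (SE). Glul, glutamine synthetase, read 11.30, 9.68, 8.21, 10.20 and 10.30 against 8.46, 8.51, 6.90, 8.57 and 8.97, with the same array of TCPOBOP 42 weeks inside the low class, and differed by 1.65 ± 0.65 (SE). TCPOBOP 42 weeks 4 was the only Gpc3-high array of its regimen. For Tbx3 it lay below TCPOBOP 42 weeks 5, 3 and 6 of the middle class (8.59, 9.02 and 8.66). The classes held the regimens unevenly, so these differences do not separate regimen from Gpc3 level. Rhbg, an ammonium transporter, differed by 2.57 ± 0.80 (SE), Notum, an enzyme that inactivates Wnt proteins by removing their lipid, by 1.41 ± 0.50 (SE), Lgr5, a receptor for R-spondins, by 1.00 ± 0.39 (SE), and Tnfrsf19, a receptor of the tumour necrosis factor family, by 0.82 ± 0.21 (SE). Ctnnb1 itself differed by 0.04 (95% interval -0.35 to 0.44).

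Within regimens the arrays are few. With only the 9 DENA plus TCPOBOP arrays (4 high, 2 low), their median difference was 0.97 and 6 members had an unadjusted p under 0.05 (3.29% of all genes in either direction). With only the 7 TCPOBOP 42 weeks arrays the median was 0.28, a value that rests on the single Gpc3-high array of that regimen against 3 low arrays. Whether the regimens differed in this was not tested for the list, and for no single gene did the slope on Gpc3 pass a test of that difference. Within slides the median was 1.70 on slide 1, 0.74 on slide 2 and 1.31 on slide 3. With regimen as a term it was 0.77 with 7 members at an unadjusted p under 0.05 (3.25% of all genes in either direction). Against controls, 2 members were called higher on Gpc3-low and 3 on Gpc3-high arrays, with 0 lower in either, where 11.1% and 10.4% of all genes were called higher. The list median against controls was -0.41 on Gpc3-low and 0.39 on Gpc3-high arrays (-0.02 over all genes in both). By that median the low arrays lay below controls and the high arrays above them, but no member was called lower and the median was not tested. Sp5 was called on Gpc3-high arrays (1.79, adjusted p = 0.0396) and not on Gpc3-low arrays (-0.83, adjusted p = 0.363), and Tnfrsf19 on both (1.66, adjusted p = 2.4e-05, and 2.48, adjusted p = 8.5e-08).

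Pericentral genes overlap with that list through Glul, Axin2, Tbx3, Rhbg and Lect2. Of 13 measured, 12 read higher on Gpc3-high arrays, 6 with an unadjusted p under 0.05 (background 1.96%) and 0 at the adjusted threshold, and the median difference was 1.00. Glul, Axin2, Tbx3 and Rhbg were among those 6 and were already counted in the beta-catenin list, so most of this count is no separate observation. Rgn, which acts in vitamin C synthesis in the mouse, read 9.85, 9.74, 9.22, 9.50 and 9.95 against 8.67, 8.38, 7.11, 7.87 and 7.86, with no overlap between the classes and a difference of 1.67 ± 0.64 (SE). Against controls its difference was -2.77 on Gpc3-low arrays (adjusted p = 0.00423). Within TCPOBOP 42 weeks, with its 1 Gpc3-high array, the median was 0.28, and within DENA plus TCPOBOP 1.26. On slides 1, 2 and 3 it was 1.88, 0.85 and 1.31. The number with an unadjusted p under 0.05 was 4 without DENA plus TCPOBOP 2, where the median was 0.76. Against controls the list median was -1.10 on Gpc3-low and 0.30 on Gpc3-high arrays, so the low class lay farther from the controls.

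Periportal genes pointed the other way. Of 11 measured, 0 read higher and 11 lower on Gpc3-high arrays, 3 with an unadjusted p under 0.05 (background 1.86%) and 0 at the adjusted threshold, and the median was -0.90. Hal, the first enzyme of histidine breakdown, read 6.14, 9.12, 8.29, 8.07 and 8.52 on Gpc3-high and 7.92, 10.58, 9.31, 11.37 and 8.22 on Gpc3-low arrays, a difference of -1.45 ± 0.61 (SE) with overlapping classes. The lowest value was on DENA plus TCPOBOP 2, the highest on DENA plus TCPOBOP 6. Arg1, arginase of the urea cycle, differed by -1.37 ± 0.58 (SE) and Cps1, which starts that cycle, by -1.02 ± 0.42 (SE). Single arrays carried much of this: without DENA plus TCPOBOP 6 the median was -0.52 with 1 member at an unadjusted p under 0.05, without DENA plus TCPOBOP 2 -0.66 with 0, and without TCPOBOP 42 weeks 1 -0.93 with 0. The median was -1.48, -0.44 and -1.91 on slides 1, 2 and 3, -1.10 within DENA plus TCPOBOP and -0.49 within TCPOBOP 42 weeks. On slide 2, with 1 array of each class, 3 of the 11 genes read higher on the Gpc3-high array. Both classes lay below controls, where 5 members were called lower on Gpc3-low and 9 on Gpc3-high arrays, with 0 higher in either, against 12.7% and 12.0% of all genes called lower. These comparisons share the 3 controls, and for Hal the differences were -2.59 (adjusted p = 0.0046) and -4.04 (adjusted p = 7.36e-05).

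**Figure D2:**
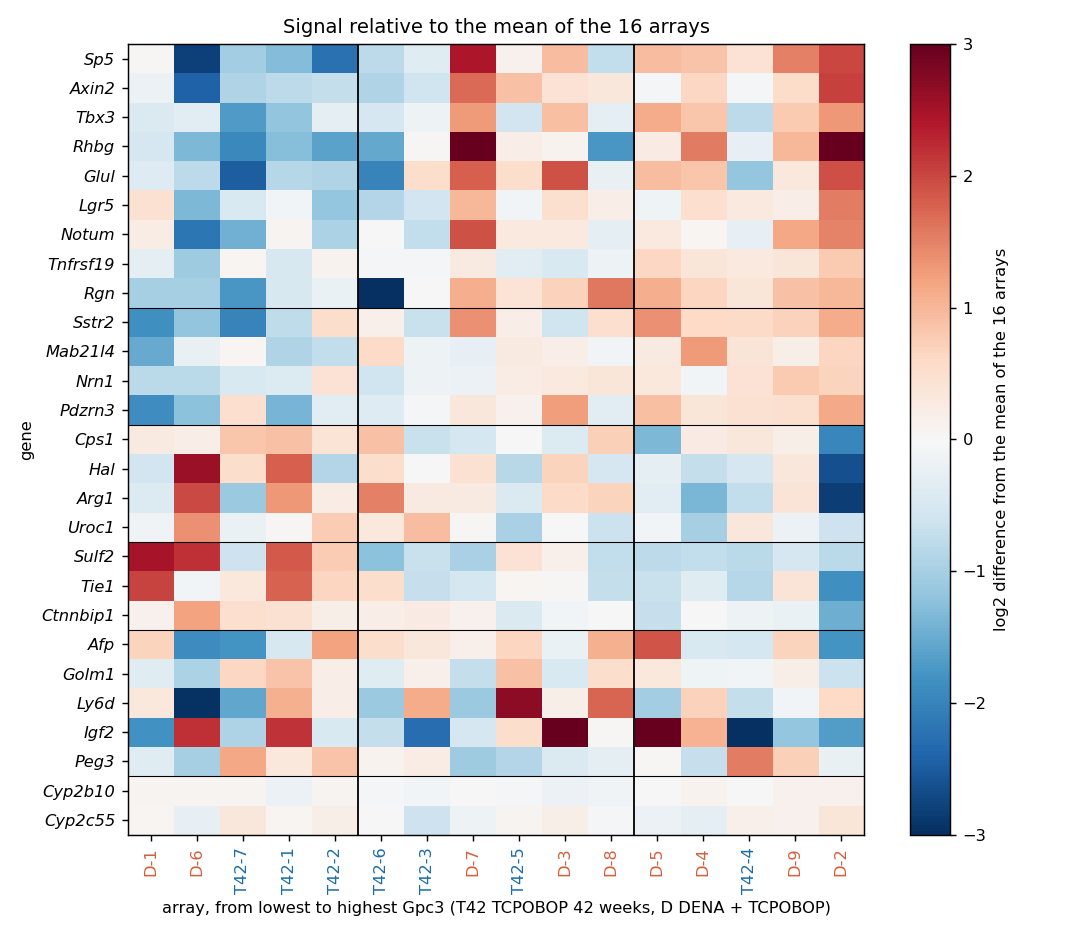
Signal of 27 genes (rows) on the 16 arrays of the tumour regimens (columns, from lowest to highest Gpc3, labels coloured by regimen), as the log2 difference from each gene's mean over these arrays; vertical lines bound the low and high classes. Sp5, Axin2 and Rhbg are bluer on the left and redder on the right, DENA plus TCPOBOP 7 in the middle class is among the reddest for Sp5 and Rhbg, and Cyp2b10 is nearly even.

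Oncofetal genes other than Gpc3 lay on both sides. Of 22 measured members 12 read higher and 10 lower on Gpc3-high arrays, and the median difference was 0.04. With an unadjusted p under 0.05, 0 were higher and 1 lower (background 1.96% and 1.86%). The lower member was Scd2, at -1.04, the lowest difference of the list, and its sign changed with DENA plus TCPOBOP arrays alone. The highest difference was that of Tff3, at 1.72, with overlapping classes (6.57 to 10.36 on Gpc3-high and 4.67 to 9.15 on Gpc3-low arrays). The sign of the median turned with the arrays compared: it was -0.52 on slide 1 (7 higher, 15 lower), -0.25 on slide 2 (8 higher, 14 lower) and 0.41 on slide 3 (18 higher, 4 lower), and 0.39 within DENA plus TCPOBOP against -0.31 within TCPOBOP 42 weeks. Afp read 6.51, 8.98, 7.77, 7.85 and 10.20 on Gpc3-high and 9.52, 7.82, 6.51, 6.42 and 8.97 on Gpc3-low arrays. The classes overlapped over most of their range, and the difference was 0.41 (95% interval -0.91 to 1.74, adjusted p = 1). Ly6d, a surface protein, read 12.32, 11.63, 10.99, 12.40 and 10.66 against 11.92, 12.77, 10.16, 8.75 and 12.02, a difference of 0.48 (95% interval -1.15 to 2.10). Golm1, a Golgi membrane protein used as a serum marker of liver cancer in people, differed by -0.14 (95% interval -0.87 to 0.59). Igf2, a fetal growth factor from an imprinted locus, spanned 6.51 to 15.27 in the high class and 9.07 to 13.06 in the low class, and differed by -0.59 (95% interval -3.38 to 2.20). Peg3, another imprinted gene, differed by 0.08 (95% interval -0.83 to 0.99). These intervals are wide and do not show that the classes were equal, but they do not separate them either. No gene of any list passed the test between the classes, so that outcome is not particular to oncofetal genes. As the listed oncofetal genes lay on both sides, the arrays are called by their Gpc3 class and not by an oncofetal state.

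In both classes the same list stood far above the controls. On Gpc3-low arrays 14 of its members were called higher and 1 lower (background 11.1% and 12.7% of genes), and on Gpc3-high arrays 13 and 1 (background 10.4% and 12.0%), with the 3 controls shared between the comparisons. Afp was higher than controls by 2.59 on Gpc3-low (adjusted p = 0.00862) and 3.00 on Gpc3-high arrays (adjusted p = 0.00305). Golm1 was higher by 4.53 (adjusted p = 1.01e-08) and 4.38 (adjusted p = 1.35e-08), Ly6d by 5.57 (adjusted p = 5.5e-05) and 6.05 (adjusted p = 2.11e-05), Igf2 by 4.89 (adjusted p = 0.0119) and 4.31 (adjusted p = 0.0267), and Peg3 by 4.26 (adjusted p = 4.95e-07) and 4.34 (adjusted p = 3.85e-07). Afp on the array without detected Gpc3, DENA plus TCPOBOP 1, was 8.97, and controls read 4.63 to 6.50. The list was chosen with earlier results of these data known, so its direction against controls is no independent evidence. Over all genes 2846 were called between Gpc3-low arrays and controls (23.8%) and 2677 between Gpc3-high arrays and controls (22.4%), and the median size of the difference was 0.374 and 0.363.

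**Figure D3:**
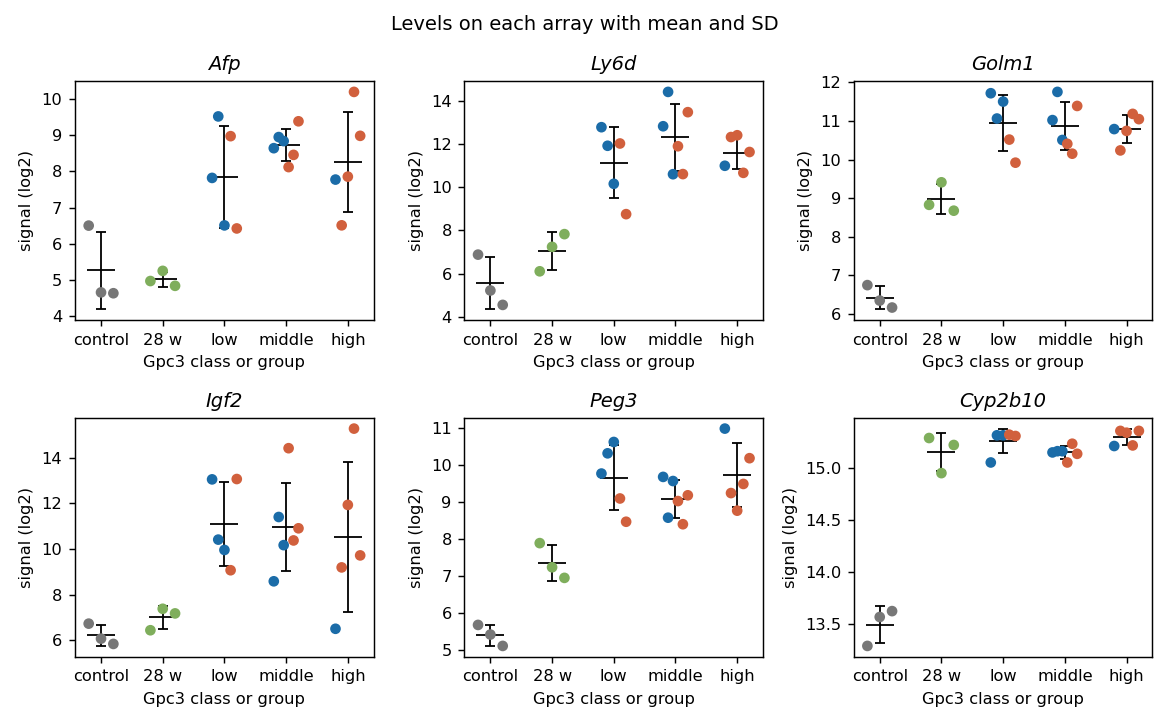
Log2 signal of Afp, Ly6d, Golm1, Igf2, Peg3 and Cyp2b10 in controls, TCPOBOP for 28 weeks and the 3 Gpc3 classes; points are arrays coloured by group, bars the mean and SD. The low, middle and high classes overlap in every panel, and all their arrays lie above the controls for Golm1, Peg3, Ly6d and Cyp2b10, while for Afp the lowest array (6.42) lies just under the highest control (6.50).

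CAR target genes had 0 of 30 measured members with an unadjusted p under 0.05 (background 3.82% in either direction) and a median difference of -0.02. Cyp2b10, the standard CAR target, read 15.35, 15.35, 15.21, 15.34 and 15.21 on Gpc3-high and 15.31, 15.05, 15.31, 15.31 and 15.32 on Gpc3-low arrays, with controls at 13.29 to 13.63. Its difference was 0.03 (95% interval -0.23 to 0.29), and its other kept probe differed by -0.37, so the direction is not settled. NRF2 target genes had a median of 0.12 and 1 of 19 members at an unadjusted p under 0.05 (background 3.82% in either direction). That member was Gpx2, a glutathione peroxidase, at 2.37 ± 0.93 (SE). Of 27 cell cycle genes 3 read higher and 24 lower, with 1 higher and 0 lower at an unadjusted p under 0.05 (background 1.96% and 1.86%), and the median was -0.27. Within slides 1, 2 and 3 the median was -0.79, -0.97 and 0.53, so its sign turned on slide 3. The 1 higher member was Ccna2 (0.44), which read 4.49 to 4.75 on Gpc3-low arrays, at the limit of detection. Top2a, which untangles DNA in dividing cells, differed by -0.65 (95% interval -1.57 to 0.27) and Cdc20, which triggers anaphase, by -0.55 (95% interval -1.68 to 0.57), and both read higher with DENA plus TCPOBOP arrays alone (0.35 and 0.30). Against controls 17 cell cycle genes were called higher on Gpc3-low and 14 on Gpc3-high arrays, with 0 lower in either, where 11.1% and 10.4% of all genes were called higher.

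Among genes of heparan sulfate, Sulf2 was the only gene of all those tested to be called in any alternative run on this comparison. Sulf2 removes sulfate from heparan sulfate chains outside the cell. Its brighter probe read 6.36, 6.66, 6.36, 6.44 and 6.39 on Gpc3-high and 7.93, 9.00, 6.54, 9.35 and 9.64 on Gpc3-low arrays. The classes overlapped through TCPOBOP 42 weeks 7 alone, the middle class ranged from 5.94 to 7.59, and controls read 9.01 to 9.16. The difference was -2.05 ± 0.46 (SE, limma adjusted p = 0.804), and it was -3.03 within DENA plus TCPOBOP (adjusted p = 0.0191) and -2.54 without TCPOBOP 42 weeks 7 (adjusted p = 0.0193). These were 2 of the alternatives, and the other 28 called no gene. The first has as its low arrays DENA plus TCPOBOP 6 and 1, the highest for Sulf2 (9.35 and 9.64). The second leaves out the array through which the classes overlapped, so neither is separate support. The second kept probe of Sulf2, dimmer at a mean of 5.51 and detected on 4 arrays of each class, differed by 0.32, so the gene's probes disagree. Against controls Sulf2 was called lower on Gpc3-high (-2.66, adjusted p = 0.000298) and not on Gpc3-low arrays (-0.61, adjusted p = 0.386). Of the 19 measured glypicans and heparan sulfate enzymes 2 were higher and 2 lower at an unadjusted p under 0.05 (background 1.96% and 1.86%), and the 3 other glypicans measured, Gpc1, Gpc4 and Gpc6, named here outside the rule for genes, differed by 0.09, 0.09 and -0.12.

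In the insulin-like growth factor axis 2 of 14 genes were higher and 2 lower at an unadjusted p under 0.05 (background 1.96% and 1.86%). Igfbp1, a secreted binding protein of these factors, differed by 1.30 ± 0.51 (SE), and Igf2r, the receptor that clears Igf2, by 0.57 ± 0.25 (SE). Igfals, the stabilising subunit of the circulating complex, differed by -0.73 and the growth hormone receptor Ghr by -0.63, which turned to 0.026 with TCPOBOP 42 weeks arrays alone. None had an adjusted p under 0.05.

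The summed levels of markers of other cells overlapped between the classes. The summed log2 level of 21 endothelial markers was 12.16 to 12.93 on Gpc3-high and 12.00 to 13.04 on Gpc3-low arrays, that of 17 Kupffer cell and macrophage markers 12.90 to 13.61 and 12.92 to 14.82, that of 19 stellate cell and fibroblast markers 11.71 to 12.96 and 10.83 to 12.86, and that of 8 bile duct and progenitor markers 14.87 to 15.72 and 14.88 to 15.35. The T cell and NK cell, B cell, neutrophil and erythroid lists likewise overlapped between the classes. On this measure the zonation lists overlapped too. Beta-catenin genes summed to 13.57 to 14.44 on Gpc3-high and 13.28 to 14.32 on Gpc3-low arrays. Pericentral genes summed to 16.48 to 17.20 and 15.75 to 16.75, and periportal genes to 14.19 to 16.01 and 15.65 to 16.70. The middle median was 14.08 against 14.06 in the high class for beta-catenin genes, and 16.69 against 16.68 for pericentral genes. Median differences of the cell marker lists lay between -0.15 (Kupffer) and 0.11 (stellate). Single markers lay on both sides, and 12 of the 21 endothelial markers read higher on Gpc3-high arrays. Tie1, an endothelial receptor, read 5.70, 7.92, 6.67, 7.16 and 6.86 on Gpc3-high and 8.19, 9.31, 7.84, 7.46 and 9.57 on Gpc3-low arrays (-1.61 ± 0.43, SE), while Pecam1 of the same cells differed by -0.48. Clec4g, a lectin of sinusoidal endothelial cells, differed by 1.97 ± 0.96 (SE), Vsig4, a receptor of Kupffer cells, by 1.52 ± 0.75 (SE), and Reln, a secreted protein of stellate cells, by 1.58 ± 0.65 (SE). The lowest arrays of all for these 3 genes among the classes included TCPOBOP 42 weeks 1, at 5.13 for Clec4g, 4.95 for Vsig4 and 5.47 for Reln, and TCPOBOP 42 weeks 7, at 5.05, 6.29 and 6.87. With DENA plus TCPOBOP arrays alone Clec4g turned to -0.22. Cd3e and Cd3d, the 2 of 4 T cell markers that were measured, were not detected on any Gpc3-high array and on 3 and 1 Gpc3-low arrays. Their means were 4.76 and 4.68 on Gpc3-high and 4.99 and 4.98 on Gpc3-low arrays, at the limit of detection, so the counts do not separate the classes. The part of these cells in the differences above was not tested.

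Across all 16 arrays the genes closest to Gpc3 by Pearson r, among named genes whose probes agreed in sign, were Nrn1 (0.83), a small neural growth protein, Pdzrn3 (0.79), a ubiquitin ligase, Sstr2 (0.78), Mab21l4 (0.75), Nxpe2 (0.74), Atf5 (0.73), Reep1 (0.72) and Sap30 (0.71). None passed the adjustment over all genes (permutation, smallest adjusted p 0.718 for Pearson's r and 0.778 for Spearman's rho), and 481 genes had an unadjusted permutation p under 0.05 for Pearson's r (4.02%). Without the 2 arrays farthest from the median of Gpc3, DENA plus TCPOBOP 1 and 6, r was 0.73 for Nrn1, 0.59 for Pdzrn3, 0.65 for Sstr2 and 0.53 for Reep1. Nrn1 read 13.74, 13.85, 13.49, 12.97 and 13.37 on Gpc3-high and 13.49, 12.65, 12.60, 12.26 and 12.24 on Gpc3-low arrays, and its Spearman rho was 0.81. Its levels lay within a narrow band, and controls (13.55 to 13.66) matched the high class. Reep1, which shapes the endoplasmic reticulum, was called higher than controls by 4.53 (adjusted p = 2.75e-11) on Gpc3-low and 5.36 (adjusted p = 1.48e-12) on Gpc3-high arrays. The lowest values of r were those of Zfp202 (-0.81), Pax8 (-0.74), Pdcl3 (-0.73), Tie1 (-0.72), Aars2 (-0.70), Ptges2 (-0.70), Ndst2 (-0.70) and Spring1 (-0.69). Pax8 and Aars2 reached at most 5.38 and 5.44 on the 16 arrays, near the limit of detection.

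**Figure D4:**
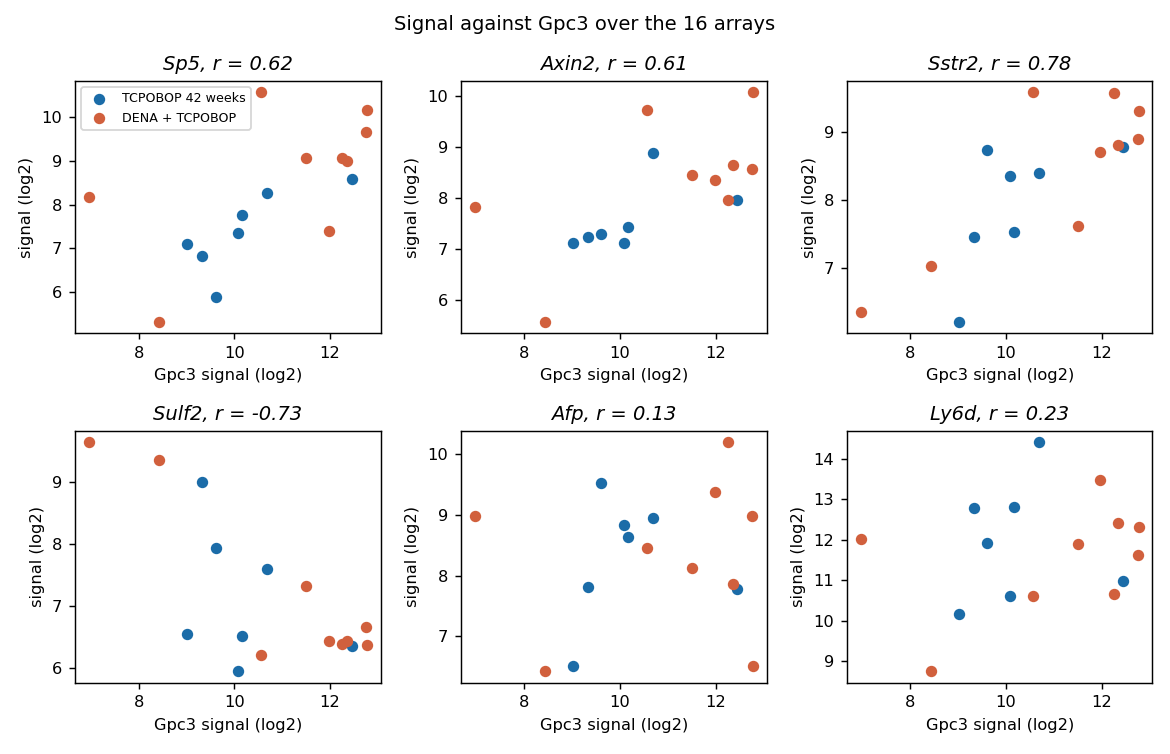
Log2 signal of Sp5, Axin2, Sstr2, Sulf2, Afp and Ly6d (vertical) against Gpc3 (horizontal, log2) on the 16 arrays, coloured by regimen, with Pearson r in each title. Sstr2 (0.78) and Sulf2 (-0.73) follow Gpc3 more closely than Afp (0.13) or Ly6d (0.23).

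**Figure D5:**
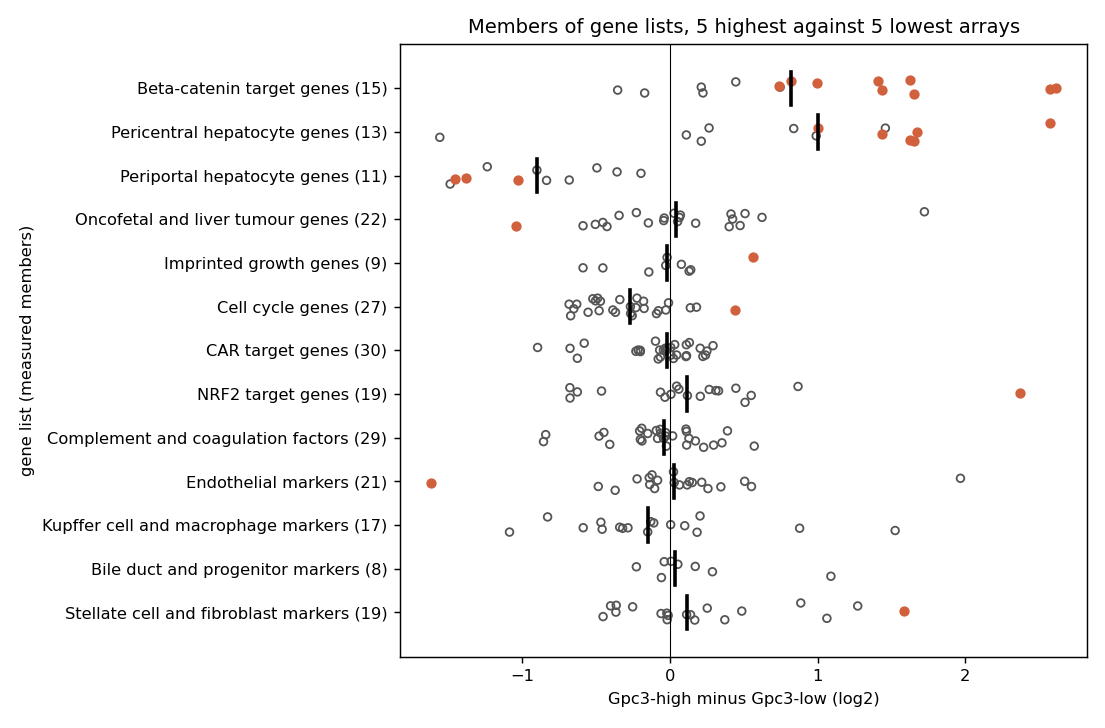
Gpc3-high minus Gpc3-low difference (log2) of each measured member of 13 gene lists; filled points have an unadjusted p under 0.05 and the black bar is the list median. Beta-catenin targets have 9 filled points above 0 and a median of 0.82, periportal genes a median of -0.90, and oncofetal genes a median of 0.04.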

How the data were processed

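RNA of 22 mouse liver samples was measured on Illumina bead arrays of 45281 probes, 1 colour. The authors deposited summarised probe intensity values, non-normalized and normalized, with a detection p-value for each probe, which ranks it against the negative control beads. Per the submitters' processing notes BeadStudio 3.0.19.0 was used; the method of the authors' normalization is not given in the sources used here. Groups and replicate numbers came from the titles, slides from the array positions.

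The deposited normalized intensities served only to order the arrays by Gpc3. All other values came from the non-normalized intensities, background-corrected by normexp in limma 3.58.1 (R 4.3.3), with an offset of 16 and the background taken from detection p-values, then quantile normalized. The filter kept 22622 probes with a detection p under 0.05 on 3 or more arrays, 19067 of them with 1 gene symbol in the platform annotation (over all probes 34885 had 1 symbol, 18 several and 10378 none). A gene stood for its brightest kept probe, giving 11974 genes without Gpc3. Classes were compared with lmFit and eBayes and Benjamini-Hochberg adjustment, threshold 0.05. Correlations used 1e+05 permutations. Fold limits use the lowest detected signal of each array. The number of arrays limits the precision. The code was tested on simulated data. Gene lists are described by counts and medians, with no set test.

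Genes were named by a rule: the 12 higher and 12 lower genes with the smallest p among those whose classes did not overlap (none being called), the 8 highest and 8 lowest r, up to 4 members of each list and a fixed set of genes; clone names, and genes with probes of opposite sign, were passed over in both the p and the r choice. H19, Cd24a, Spp1, Epcam, Mki67 and Ccnb1 had no kept probe. Which of these genes are described was decided with their values known. The members, lists and rule were chosen with earlier results of these data known. Alternatives changed the normalization, filter, probe rule, model terms, class size and arrays. Python 3.11.15 with pandas 2.3.3, numpy 2.4.6 and matplotlib 3.10.9 made tables and figures.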

Additional observations from a re-analysis of the deposited data

Results flagged for a closer look

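Among 100 groups of 7 or 9 arrays examined, 3 held an array far from the others, where chance alone gives about 1 in 20. The groups were 50 measures in 2 regimens, namely genes including Gpc3 and the share of probes detected. Axin2 on DENA plus TCPOBOP 6 was 5.58, below the next lowest array of that regimen at 7.83. Uroc1, a histidine breakdown enzyme of periportal hepatocytes, was 11.88 on the same array, above the next at 10.52. Cyp2c55, a CAR target, was 13.70 on TCPOBOP 42 weeks 3, below the next at 14.30.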

How the results depend on the processing

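The count of 0 genes called between the classes was 1 (Sulf2) with DENA plus TCPOBOP arrays alone, and 0 to 1 with 1 array left out in turn (1 without TCPOBOP 42 weeks 7). The median differences were 0.28 for both the beta-catenin and the pericentral list with TCPOBOP 42 weeks alone, 1.70 and 1.88 within slide 1, -0.52 for oncofetal genes within slide 1 and -1.91 for periportal genes within slide 3. Leaving out 1 array gave 0.70 to 1.01, 0.76 to 1.38, -0.05 to 0.15 and -1.10 to -0.52 for these 4 lists. Some genes changed sign, among them Clec4g (1.97), Scd2 (-1.04), Top2a (-0.65) and Ghr (-0.63), and the cause was not tested. With TCPOBOP 42 weeks alone these were Afp (-0.18), Ly6d (-0.63), Ctnnb1 (-0.31), Cyp2b10 (-0.016), Hamp (-0.54), Nr1i3 (-0.11), Uroc1 (0.14) and Ghr (0.026). With DENA plus TCPOBOP alone they were Golm1 (0.58), Igf2 (0.46), Cyp2c55 (0.11), Top2a (0.35), Cdc20 (0.30), Scd2 (0.090), Hamp (-0.28) and Clec4g (-0.22). Median scaling gave Peg3 -0.14, Ctnnb1 -0.18, Nr1i3 -0.12 and Sulf1 -0.019, and moved the median of all genes by -0.17. It also moved the share of higher calls against controls on Gpc3-high arrays from 46.5% to 32.1%. Regimen as a term gave Golm1 0.10 and Ctnnb1 -0.023, slide as a fixed block Ctnnb1 -0.074 and Hamp -0.29, cyclic loess Cyp2c55 0.022, the mean of probes Cyp2b10 -0.17, 4 against 4 arrays Cyp2c55 0.035 and 6 against 6 Golm1 0.027. Without the 2 lowest arrays, an alternative chosen after seeing the data, Ly6d was -0.015, Peg3 -0.50 and Ctnnb1 -0.061. With 1 array left out, Afp ranged from -0.069 to 0.85, Golm1 from -0.40 to 0.050, Ly6d from -0.12 to 0.89, Igf2 from -1.77 to 0.42, Peg3 from -0.23 to 0.32, Ctnnb1 from -0.049 to 0.14, Cyp2b10 from -0.018 to 0.055, Nr1i3 from -0.037 to 0.23 and Cyp2c55 from -0.13 to 0.040. With the replicate block beside regimen, 0 genes were called on the Gpc3 level (420 at an unadjusted p under 0.05), and same-numbered arrays correlated at -0.15 to 0.10, none best with its own number, so the numbers do not pair the arrays. Genes called against controls ranged from 1976 to 3310 on Gpc3-low and 1853 to 2573 on Gpc3-high arrays with 1 array left out. Probes near background, among them Pdcl3, Dmtn, Actn3, Toporsl, Nkain4, Fry, Pabpc2, Pax8 and Aars2, have little signal to compare.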
